A study of Mus musculus with 15 samples.

Results

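Tuba3a and Tuba3b are the alpha tubulin genes that mice normally use in the male germline, and they were compared here with the 5 somatic relatives Tuba1a, Tuba1b, Tuba1c, Tuba4a and Tuba8, so that 7 of the 46517 genes in the count files are described. Tuba3a and Tuba3b were selected on their RNA counts in this same comparison, near 0 in controls and high in the knockout, so those RNA values are given as a description without a test. The methylation values did not enter that choice. All samples were mouse kidneys of strain C57BL/6. Controls were Dnmt1 f/f pups at postnatal day 0 (P0), whose floxed alleles are intact. Knockouts (KO) were Six2Cre Dnmt1 f/f pups at P0, which carry the same floxed alleles and a Cre recombinase driven by Six2, a gene of nephron progenitors. Wild-type adults of 6 weeks, without floxed alleles, gave a further methylation group. RNA sequencing covered 3 control and 3 KO samples, and reduced representation bisulfite sequencing (RRBS), which reads cytosine methylation in CpG-rich restriction fragments, covered 3 control, 3 KO and 3 adult samples. The labels call the source Six2+ cells, while their extraction text names the whole kidney for DNA, and markers of stroma, endothelium and collecting duct were all detected in the RNA. The samples may therefore also hold cells that Cre does not reach. Nothing in the labels says whether a sample is 1 animal or a pool, so p-values measure the spread between samples, which may in part be technical.

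Alpha tubulin joins beta tubulin to form the dimers from which microtubules grow. Somatic cells draw their alpha tubulin mainly from the Tuba1 genes, while Tuba3a and Tuba3b belong to a set of germline genes whose promoters are methylated and silent in body tissues. DNMT1 copies CpG methylation onto the new DNA strand after replication, and E2F6 is a repressor known to act at the promoters of both Tuba3 genes in somatic cells.

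Tuba3a lies on chr6:125278270-125286081 on the minus strand and Tuba3b on chr6:145615963-145621477 on the plus strand (GRCm38). The 250 bases before each annotated start are shown because methylation near these starts was compared below, with Tuba1b, a broadly used somatic gene, for contrast. Within the Tuba3a sequence shown, no RRBS position had 5 calls in all 6 P0 samples, and within that of Tuba3b 5 did. At that minimum the Tuba3a start values for control and KO come only from bases after the start. Sequences are RefSeq's for GRCm38.p6, 5′ to 3′ in the direction of the gene, with each CpG in capitals. They cover chr6:125286082-125286331 (minus strand), chr6:145615713-145615962 (plus strand) and chr15:98934391-98934640 (minus strand).
Tuba3a: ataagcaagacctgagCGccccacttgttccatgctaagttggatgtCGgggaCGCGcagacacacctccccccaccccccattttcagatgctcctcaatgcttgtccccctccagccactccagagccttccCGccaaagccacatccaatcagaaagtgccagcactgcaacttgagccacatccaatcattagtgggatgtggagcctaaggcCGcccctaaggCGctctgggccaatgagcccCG
Tuba3b: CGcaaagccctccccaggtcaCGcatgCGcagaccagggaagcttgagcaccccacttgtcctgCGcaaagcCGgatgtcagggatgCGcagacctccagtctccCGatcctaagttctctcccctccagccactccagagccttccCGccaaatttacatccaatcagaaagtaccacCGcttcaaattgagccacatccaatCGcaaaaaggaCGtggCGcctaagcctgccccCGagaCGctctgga
Tuba1b: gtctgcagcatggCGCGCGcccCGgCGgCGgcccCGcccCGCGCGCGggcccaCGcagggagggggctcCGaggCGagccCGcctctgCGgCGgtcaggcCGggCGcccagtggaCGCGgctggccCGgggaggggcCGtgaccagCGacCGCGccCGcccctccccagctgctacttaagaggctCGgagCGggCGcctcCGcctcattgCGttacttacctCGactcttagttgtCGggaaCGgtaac
Tuba3a has 8 CpGs in this stretch and Tuba3b has 14, against 35 for Tuba1b, 20 for Tuba4a and a median of 6 over 32851 promoters of the same length. The other members hold 11 (Tuba1a), 4 (Tuba1c) and 7 (Tuba8). The Tuba3a and Tuba3b stretches were 77.5% identical over 218 aligned bases.

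The longest run that both Tuba3 promoters share is 33 bases, and it is shown because it holds the only searched element found in both and in no other member.
Shared run: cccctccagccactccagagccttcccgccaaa
It contains the E2F-type element TTCCCGCC, whose first base is 120 bases before the Tuba3a start and 107 bases before the Tuba3b start. On either strand this element occurs in 1.86% of the 32851 promoters. CCAAT boxes (CCAAT, either strand, in 33.8% of promoters) lie at -102, -64 and -13 in Tuba3a and at -89 and -51 in Tuba3b. A GC box (GGGCGG, either strand, in 32.7% of promoters) was found in Tuba3a at -34 and not in Tuba3b. The cut site of MspI (CCGG, the usual RRBS enzyme, in 47.1% of promoters) lies at -179 in Tuba3b and in no part of the Tuba3a stretch. None of these matches overlapped the E2F-type element. A match describes letters only and does not show that a factor bound there. E2f6 itself stood at 32.4 ± 4.48 CPM in the control libraries, with 30.5 ± 2.18 CPM in KO (SD, n = 3; CPM is the count scaled to library size and composition), a log2 fold change of -0.08 that did not pass the edgeR test (adjusted p 0.769).

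Tuba3a RNA was almost absent from control kidneys and abundant in every KO kidney. Controls 1 to 3 had counts of 2, 1 and 0, while KO 1 to 3 had counts of 1585, 1790 and 1746. Every KO library was far above every control library. In CPM the means were 0.0311 ± 0.0305 and 58.1 ± 8.49 (SD, n = 3). The ratio of summed CPM was 1929.8 with a 95% counting interval of 660.0 to 9361, which covers counting error only. The fitted log2 fold change was 10.75 (SE 0.37) and rests in part on the prior count edgeR adds to the low controls.

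Tuba3b showed the same pattern. The control libraries counted 2, 1 and 0 reads and the KO libraries 782, 997 and 947, again without overlap. Mean CPM was 0.0311 ± 0.0305 without Cre and 31.0 ± 5.99 with it (SD, n = 3). The ratio of summed CPM was 1027 (95% counting interval 351 to 4984) and the fitted log2 fold change 9.84 (SE 0.44). Among 239 genes with at most 3 counts over the controls that were called higher in KO, Tuba3a ranked 1 and Tuba3b ranked 6 by mean KO CPM. The ranks describe level only, because both genes were chosen on these same counts. The limit of 3 is also the control total of each of them. It leaves out Dazl, with 9 control counts and a KO mean of 72.9 CPM, so rank 1 depends on that limit. Over all genes, 1153 of 18132 tested, or 6.36%, were called higher by edgeR's quasi-likelihood test at an adjusted p of 0.05, the background for these genes. Both genes are close copies of one another. Reads without a unique alignment, 14.0 to 28.0% of reads per library, were set aside and not counted to any gene. How many of them fit both Tuba3 genes is not known, so both levels may be too low and the split between them is uncertain.

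The Tuba1 genes, which supply most alpha tubulin in somatic cells, had overlapping levels in control and KO over all 6 libraries. Tuba1a, the isotype prominent in developing neurons, had 416, 577 and 234 CPM in controls and 503, 492 and 531 CPM in KO (log2 fold change 0.31, SE 0.29). Tuba1b had 635, 722 and 372 CPM in controls and 510.5, 573 and 581 CPM in KO (-0.05 on the log2 scale). Tuba1c had 121, 107 and 63.8 CPM in controls and 73.6, 91.2 and 93.3 CPM in KO (-0.18). Control 3 was the lowest library for all 3 genes, while the KO libraries lay close together. Without control 3 the other 2 controls lay above every KO library for Tuba1c, which was then called lower (log2 fold change -0.41), the only alternative of 10 that called it. The change of Tuba1b without control 3 was -0.29 and was not called.

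Tuba4a, an alpha tubulin encoded without the usual last tyrosine, was the only somatic member whose groups did not overlap. It had 113, 92.4 and 96.2 CPM in controls and 30.5, 47.3 and 35.7 CPM in KO, a log2 fold change of -1.41 (SE 0.17). Called lower were 8.23% of all genes tested. The share of all genes whose groups do not overlap was not counted. RefSeq places Stk16 on the opposite strand over one end of Tuba4a and A630095N17Rik on the same strand over the other, and the strand setting of the counting is not given in the sources used here. Over the same samples the 6 nephron tubule markers summed to 3183 to 4841 CPM in controls and 987 to 1253 CPM in KO, with 5 of 6 called lower. Their part in the Tuba4a difference was not tested, and in bulk RNA fewer cells of a type and less RNA per cell cannot be told apart. Tuba8, known mainly from muscle and testis, was barely detected, with 11, 12 and 10 reads in the control libraries and 7, 9 and 6 in the KO libraries. It fell below the edgeR filter on low counts and was not tested, while the other 6 members passed, Tuba3a and Tuba3b through their KO libraries. Tuba1b lies inside the lncRNA Gm41396 of the opposite strand, so its reads could include those of that RNA.

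**Figure D1:**
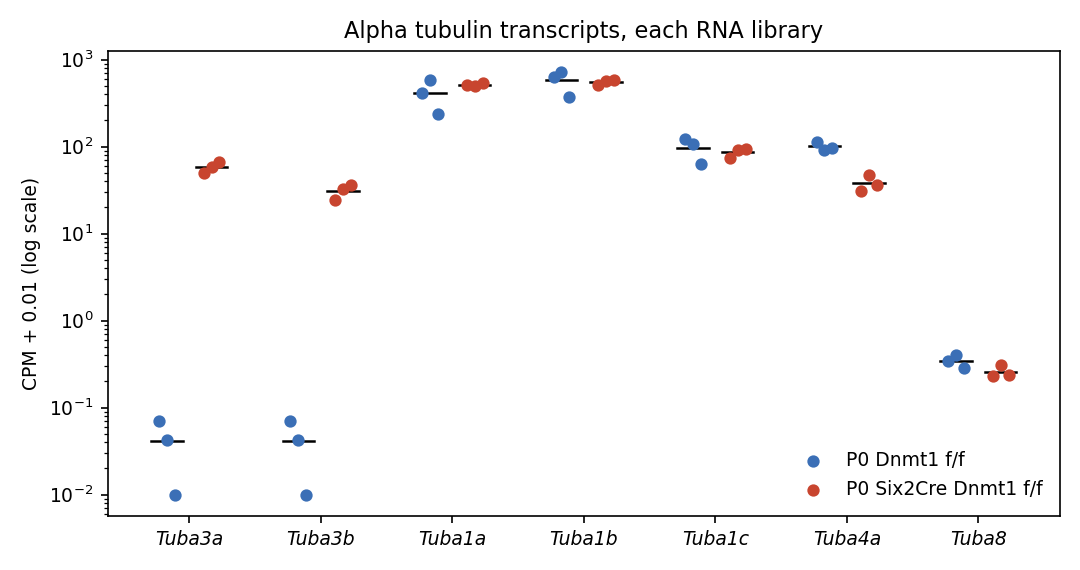
CPM plus 0.01 on a log axis for each alpha tubulin gene, with 1 point per RNA library, 3 control and 3 KO, and a black line at the group mean. Tuba3a and Tuba3b go from 0.0311 CPM to 58.1 and 31.0 CPM, Tuba4a lies lower in KO without overlap, and the Tuba1 genes overlap.

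Summed over the 7 genes, alpha tubulin reads lay within the control range, at 766 to 1499 CPM in controls and 1192 to 1344 CPM in KO. Tuba3a and Tuba3b supplied 0.00460% ± 0.00474 of these reads in controls and 6.95% ± 0.718 in KO (SD, n = 3), with no correction for transcript length. Reads without a unique alignment are not part of these shares. By library the share was 0.00948%, 0.00432% and 0% in controls, where 0 of 28170 reads in control 3 allows up to 0.0131% (exact binomial interval), and 6.19%, 7.05% and 7.61% in KO.

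Methylation near the start of Tuba3a was almost complete in controls and lower in every KO sample. Counts of methylated and unmethylated calls were summed over positions within 1 kb of the annotated start, and each CpG strand counts as its own position. At a minimum of 10 calls in all 6 samples no Tuba3a position was left, so a minimum of 5 was used, which left 6 positions between 73 and 101 bases after the start. There, 100%, 96.6% and 95.1% of calls were methylated in controls 1 to 3, and 68.9%, 59.0% and 66.7% in KO 1 to 3. The groups did not overlap. The mean fell from 97.3% ± 2.49 to 64.8% ± 5.21 (SD, n = 3), a difference of -32.4 points. In a quasi-binomial model over all 15901 start windows at this minimum the adjusted p was 0.00242, where 8.38% of windows were called lower. The two-sided exact permutation test gave 0.1, the smallest p that 3 against 3 allows (0.2 adjusted over the pair of Tuba3 genes). Depth was 48 to 119 calls per sample. The 95% exact binomial interval was 51.6 to 79.6% in KO 3, the shallowest library. It treats all calls as independent, while calls at such close positions can come from the same read, so it may be too narrow.

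At single positions the loss was spread over all of these measured Tuba3a positions, which lie after the start. At 77, 82 and 85 bases after the start every control call was methylated, and the KO samples lay between 62.5% and 75.0%. At 93 bases the KO values were 40.0%, 63.2% and 62.5%, and at 73 bases they were 75.0%, 42.1% and 62.5%. At 101 bases KO 3 had 87.5%, just under the 88.9% of controls 2 and 3. Each KO 3 value rests on 8 calls, so single positions here are imprecise.

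Tuba3b kept most of its methylation over its window, whose positions are not matched in distance from the start to those of Tuba3a. Over 23 positions at the same minimum, 97.4%, 94.96% and 97.7% of calls were methylated in controls and 84.2%, 84.3% and 97.6% in KO. KO 3 lay inside the control range, so the groups overlapped. The mean went from 96.7% ± 1.51 to 88.7% ± 7.67 (SD, n = 3), a difference of -7.97 points, with an adjusted p of 0.0068 in the model for the Tuba3b window and 0.3 in the exact permutation test (0.3 adjusted over the pair). At the planned minimum of 10 calls, 16 positions gave 97.4% ± 1.82 and 91.5% ± 7.09, a difference of -5.92 points (model adjusted p 0.0299), where 7.01% of 11727 start windows were called in either direction. That call did not hold when each position weighed the same (limma adjusted p 0.624) or when control 1, control 3, KO 1 or KO 2 was left out (-6.10, -4.93, -3.39 and -4.40 points). The model weighs samples by their calls, 236 to 1280 here, while the difference weighs samples the same. KO 3, at 99.6% in this window, came from the library with the fewest calls.

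Within the Tuba3b window the loss was uneven. At 96, 140 and 145 bases after the start, KO 1, 2 and 3 had 52.6%, 33.3% and 71.4%, then 57.9%, 63.2% and 71.4%, then 66.7%, 52.6% and 71.4%. All of these were below the lowest control values of 79.2%, 72.7% and 84.6%. The measured Tuba3a positions span the distance of 96 bases, where the Tuba3b KO values were about as low as those of Tuba3a. From 213 to 252 bases KO 1 was lowest, at 46.2 to 57.7%, against 84.8 to 93.9% in KO 2 and 100% in KO 3. Before the start, at -13 and -8, KO 2 had 69.2% and KO 1 84.6%, while KO 3 had 100%. No RRBS position in any of the 9 samples fell inside the E2F-type element of either gene, so its own CpG was not measured.

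**Figure D2:**
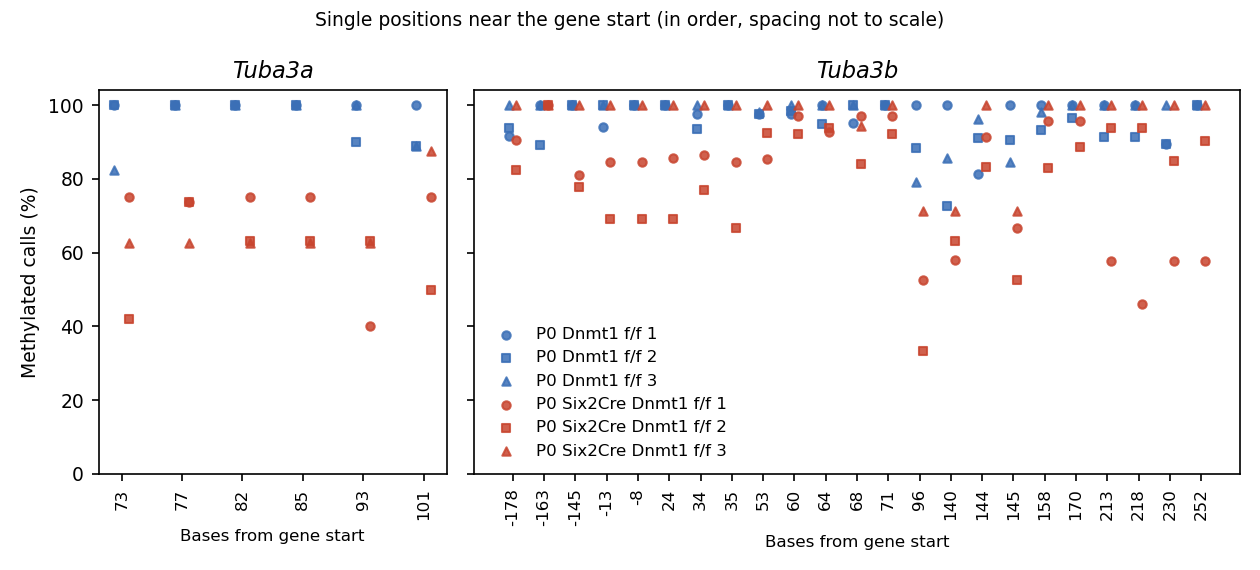
Methylated calls in percent at each position within 1 kb of the start that had at least 5 calls in all 6 P0 samples, for Tuba3a (6 positions) and Tuba3b (23 positions), in order along the gene. Blue symbols are the 3 controls and red symbols the 3 KO samples. KO points lie below every control at each of the 6 Tuba3a positions, and for Tuba3b KO 3 mostly stays near 100%.

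Against other strongly methylated starts, Tuba3a lost more points than most and Tuba3b fewer than most. At the minimum of 5 calls, 922 start windows had at least 80% methylation in controls, and their median change was -23.8 points. Their median in controls was 89.5%, while Tuba3a began higher, at 97.3%, and Tuba3b at 96.7%, so points lost are not compared from an equal start. Of these, 799 (86.7%) lost less than Tuba3a and 29 (3.15%) lost less than Tuba3b. By sample, the median of these windows in KO was 67.5%, 61.8% and 68.4%, and Tuba3a, at 68.9%, 59.0% and 66.7%, lay close to it in each library. Tuba3b lay near or above the 95th percentile of the same windows in KO, which was 85.7%, 83.2% and 94.1%. In controls both genes already lay above the medians of these windows, 89.3%, 90.3% and 90.1%. The 95th percentile in controls was 98.4%, 97.4% and 98.5%. These ranks are descriptions. The difference between Tuba3a and Tuba3b went from 0.562 ± 2.77 points in controls to -23.9 ± 7.89 points in KO (SD, n = 3), a change of -24.4 points, with an exact permutation p of 0.1 (0.2 adjusted over the pair of window types compared). Over the gene windows, at a minimum of 10 calls, it went from -31.1 ± 2.89 to -44.3 ± 11.3 points, a smaller change of -13.2 points (exact permutation p 0.2, also 0.2 adjusted). Neither could pass the threshold of 0.05, because the smallest p of this test with 3 against 3 is 0.1. The start windows reached that smallest p, with every KO difference below every control difference. Whether the genes differ in their loss is not decided by this test. The share of cells in which Cre had acted was not measured here. Unrecombined cells and partial loss within recombined cells therefore cannot be told apart.

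**Figure D3:**
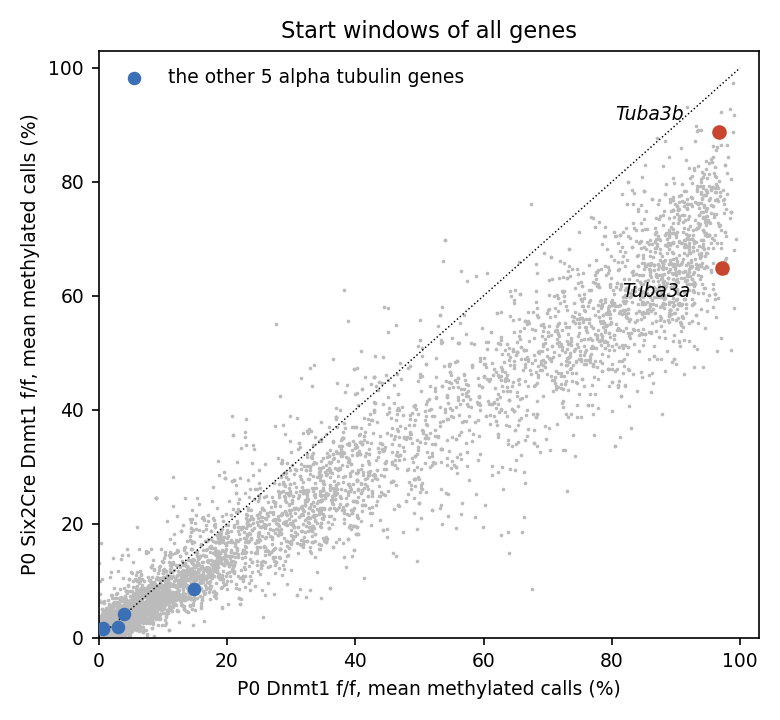
Mean methylated calls in percent in KO against controls for 15901 start windows with at least 5 calls per position, each grey point 1 window, with the dotted line at equal values. Tuba3a (97.3 to 64.8%) sits within the cloud of windows that lost methylation, Tuba3b (96.7 to 88.7%) at its upper edge, and the 5 somatic genes (blue) at the low end.

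Tuba1a, Tuba1b, Tuba1c and Tuba4a were nearly unmethylated at their starts in both groups. At a minimum of 5 calls, control means were 0.742% for Tuba1a, 0.689% for Tuba1b, 2.95% for Tuba1c and 4.03% for Tuba4a, and KO means were 1.77%, 1.55%, 1.98% and 4.17%. None of these 4 changes passed the model, and in each gene the groups overlapped. Tuba4a, whose RNA was lower in KO, thus showed 3.3 to 5.1% in controls and 3.0 to 5.0% in KO at its start. The Tuba4a start used was base 75219294 of chromosome 1, inside the annotated gene. The 5′ end of that gene, at 75221261, lay outside the window. Tuba8 had 4 positions, at 27.3%, 7.5% and 9.9% in controls and 10.4%, 8.1% and 7.4% in KO.

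**Figure D4:**
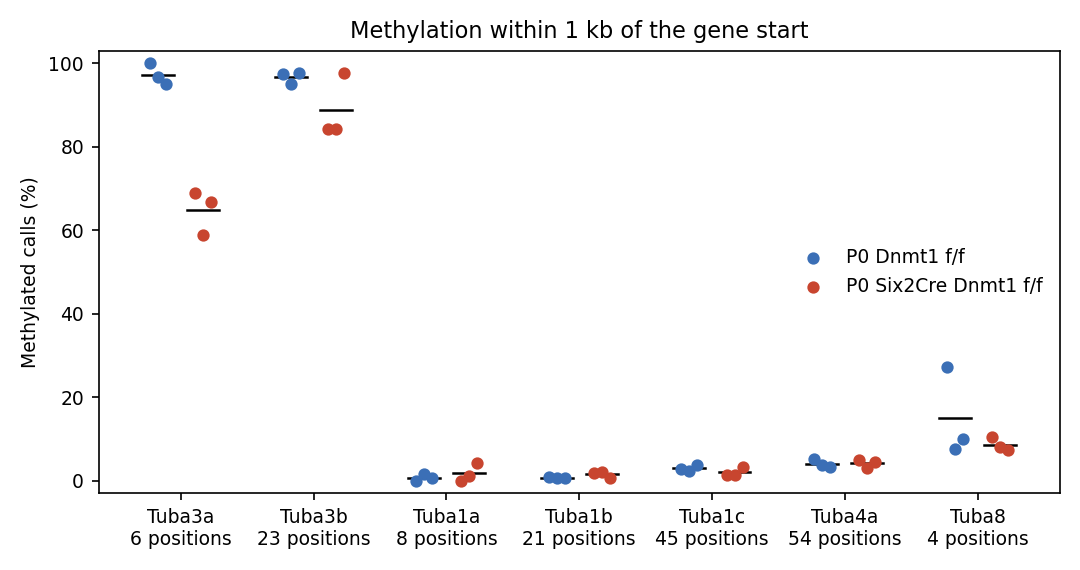
Methylated calls in percent within 1 kb of the start of each alpha tubulin gene, with 1 point per RRBS sample (3 control, 3 KO), a black line at the mean and the number of positions under each name. Both Tuba3 genes start above 95% in the mean of controls, and Tuba1a, Tuba1b, Tuba1c and Tuba4a stay below 6% in every sample.

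Across whole genes with 2 kb on each side, the 5 Tuba3a positions with 10 calls, all about 6 kb after the start, had 54.0%, 57.6% and 59.2% in controls and 40.1%, 35.8% and 36.6% in KO. The difference was -19.4 points (model adjusted p 0.00523), where 58.4% of 23202 gene windows were called lower, so a loss of this kind was common. Tuba3b over 20 positions went from 88.0% ± 2.80 to 81.8% ± 9.49 (SD, n = 3), with an adjusted p of 0.0240 in the model and 0.139 when positions weighed the same, and the groups overlapped. Leaving out KO 1 brought its change to -1.60 points and leaving out control 3 to -4.75, neither past the threshold. Tuba1c, over 16 positions, went from 24.9% ± 3.05 to 18.3% ± 2.55 (adjusted p 0.0323), a call lost at a minimum of 5 calls and without control 1, control 2 or KO 2. In Tuba8, 7 positions gave 23.5% ± 3.44 and 24.1% ± 1.95 when calls were summed and a change of -8.40 points when positions weighed the same (limma adjusted p 0.0206). Tuba1b and Tuba4a had positions only near their starts.

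At single positions, 35.2% of 380162 were called lower in KO by at least 10 points. Of the members' positions, 2 of 5 were called lower in Tuba3a, 3 of 20 in Tuba3b, 2 of 16 in Tuba1c, 1 of 7 in Tuba8, 0 of 3 in Tuba1b and 0 of 22 in Tuba4a. At chr6:125280074, 6007 bases into Tuba3a, methylation fell from 88.6% ± 4.66 to 37.8% ± 12.6, and 20 bases away at chr6:125280094 from 72.9% ± 5.45 to 35.7% ± 21.3 (SD, n = 3). In Tuba3b, the position 2909 bases in (chr6:145618872) had 100%, 98.5% and 100% in controls and 79.4%, 84.4% and 76.9% in KO, so this site fell in all 3 KO samples. At -145 bases the KO samples had 81.0%, 77.8% and 100%, and at 252 bases 57.7%, 90.3% and 100%, against 100% in every control, so KO 3 showed no loss at either. Without KO 1 no Tuba3b position was called, and without control 2 only 1 was. In Tuba1c both called positions lay in the gene body, 5345 and 5385 bases in, at 85.5% and 88.6% in controls and 59.0% and 58.4% in KO.

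Adult wild-type kidneys were also highly methylated at both Tuba3 starts. Tuba3b over 23 positions had 95.5%, 96.0% and 95.8% in adults, against 96.7% ± 1.51 in controls, a difference of -0.934 points (adjusted p 0.782). Tuba3a over 5 positions had 92.1% ± 2.49 in adults and 94.8% ± 2.93 in controls, a difference of -2.71 points (adjusted p 0.566), where 8.97% of 15518 start windows were called lower. The Tuba1c start, at 3.28% ± 0.965 in controls and 0.454% ± 0.237 in adults, passed when calls were summed (adjusted p 0.00271) and not when positions weighed the same (limma adjusted p 0.0689). Over its whole gene window of 16 positions Tuba3a rose from 76.0% ± 2.93 to 87.2% ± 0.301 in adults, 11.2 points (adjusted p 0.00500), or 6.24 points with positions weighing the same (limma adjusted p 0.0170). Of 26851 gene windows, 5.93% were called higher and 19.8% lower in adults. Tuba1a (-13.2 points), Tuba1c (-11.3) and Tuba8 (14.7) also passed when calls were summed, but their changes were -0.319, -2.02 and 2.33 points, none past the threshold, when positions weighed the same. Adults differ from controls in age and in the floxed alleles, and these cannot be told apart. RNA was measured at P0 only.

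Of the partners and handlers of alpha tubulin, 4 passed the test. Of 82 listed genes for beta and other tubulins, gamma tubulin rings, tubulin folding, alpha tubulin modification and microtubule binding, 76 were tested, 1 rose and 3 fell, against 6.36% of all genes tested called higher and 8.23% lower, with a median log2 fold change of 0.02 against -0.00074 over all genes. Map1b, a microtubule-associated protein of growing axons, rose from 34.7 ± 1.54 to 59.4 ± 2.99 CPM (log2 fold change 0.78, edgeR adjusted p 0.00222). Mapt, which encodes tau, fell from 20.5 ± 7.48 to 6.69 ± 0.370 CPM (-1.61, adjusted p 0.00550). Tubb2a, a beta tubulin, fell from 78.4 ± 6.69 to 50.1 ± 4.49 CPM (-0.65, adjusted p 0.00823). Hdac6, an enzyme that removes acetyl groups from alpha tubulin, fell from 134 ± 5.69 to 98.0 ± 7.36 CPM (-0.46, adjusted p 0.0245) and was called under 5 of 10 alternatives, against 9 for Tubb2a and all 10 for Map1b and Mapt. No control and KO values of these 4 genes overlapped. The same held for listed genes that did not pass, such as Tubg1, Nedd1 and Kif2c, so it is not particular to the 4.

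By sub-list, 1 of 7 beta tubulins tested fell and 6 did not pass, none of 4 other tubulins, 8 gamma tubulin ring genes or 19 folding genes passed, 1 of 19 modification genes fell, and 1 of 19 binding and turnover genes rose and 1 fell. Tubb5, a broadly used beta tubulin, stood at a log2 fold change of 0.01 (adjusted p 0.989). Tubb3, the neuronal beta tubulin, had a mean of 0.462 ± 0.279 CPM in controls, against 1.04 ± 0.326 CPM in KO (adjusted p 0.155). Tubal3, a further alpha-like gene, had no count in any library. Without control 3, 10 listed genes rose and 7 fell, so the small counts depend on that library.

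**Figure D5:**
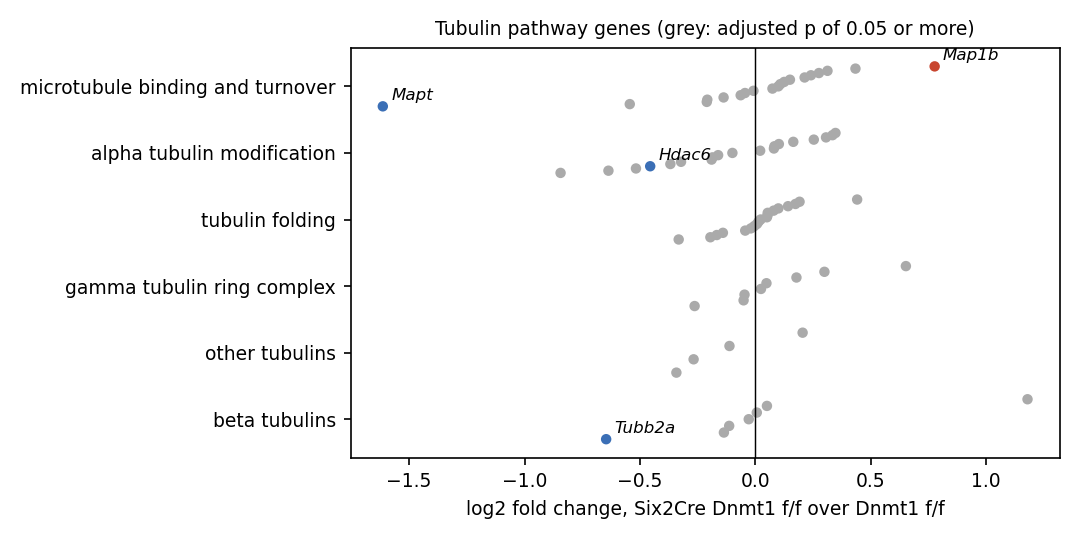
Log2 fold change in KO over control for the 76 tubulin pathway genes tested, by sub-list, each point 1 gene in rank order within its list. Named points passed the edgeR test, with Map1b higher (0.78) and Tubb2a (-0.65), Hdac6 (-0.46) and Mapt (-1.61) lower, and the rest lie around 0.

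Of genes with a standard symbol, those most like Tuba3a or Tuba3b in RNA over the 6 libraries were others near 0 in every control. Any measure of likeness fixes this in advance, since both Tuba3 genes were chosen as near 0 in controls. Likeness was the root mean square difference in log2(CPM + 0.5). Nearest to Tuba3a were Zscan4d (0.29), a zinc finger gene of the early embryo, Dazl (0.32), an RNA-binding protein of germ cells, Sohlh2 (0.39), a germ cell transcription factor, Pramef25 (0.58) and Usp17le (0.67). Nearest to Tuba3b were Six3 (0.16), a homeobox gene of eye and forebrain, Usp17le (0.19), Pramef25 (0.22), Sohlh2 (0.30) and Zscan4b (0.48). Tuba3a and Tuba3b differed from each other by 0.64. The measure follows level as well as shape, and says nothing of shared control.

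Markers of germ cells and gonad were read beside the Tuba3 values. Of 6 germ cell markers, 4 were tested and 2 rose. Dazl went from 0.0902 ± 0.0825 to 72.9 ± 20.4 CPM and Ddx4, a germ cell RNA helicase, from 0.491 ± 0.159 to 2.01 ± 0.668 CPM (edgeR adjusted p 3.67e-05 and 0.0123). Dnd1 and Nanos3 did not pass, Pou5f1 had 1 count in all, and Dppa3 had none. Their summed level was 2.99 to 4.05 CPM in controls and 63.5 to 102 CPM in KO, nearly all of it Dazl. The 7 late testis markers, protamines and transition proteins among them, summed to 0.0914 to 0.190 CPM in controls and 0.152 to 0.262 CPM in KO, and none passed the filter for testing. The 7 somatic gonad markers summed to 5.12 to 9.32 CPM and 5.05 to 6.76 CPM, with Foxl2 at 0. Whether any germ cells contributed was not tested.

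RNA libraries held 26773937 to 34102567 counted reads, and RRBS libraries 18424875 to 88765177 calls, the fewest in KO 3. Dnmt1, the targeted gene, had a mean of 174.8 ± 16.6 CPM in controls, against 104.8 ± 9.57 CPM in KO (log2 fold change -0.74, edgeR adjusted p 0.00577), without overlap. Leaving out each RNA library in turn kept the log2 fold change of Tuba3a between 10.15 and 11.59 and that of Tuba3b between 9.24 and 10.68, while the count of all genes called higher ranged from 647 to 2512. Both Tuba3 ranges are descriptions of counts on which these genes were chosen.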

How the data were processed

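Gene counts from 6 RNA libraries and methylation calls from 9 RRBS libraries were used as the authors deposited them. Per the submitters' processing notes, Trim Galore, Bismark, STAR 2.4.1d and HTSeq 0.6.1 were used with mm10/GRCm38, and per the labels' protocols poly-A RNA was prepared with a TruSeq kit and RRBS with a Diagenode kit. The deposited RNA files hold raw counts per gene, plus 5 lines of unassigned reads (22.9 to 35.8% of reads), which were left out. The deposited RRBS files hold, per cytosine, a methylation percent and the counts of methylated and unmethylated calls. No coordinates were converted, and 99.6% of RRBS positions inside RefSeq GRCm38.p6 promoters fell on a CpG.

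Genes were tested with edgeR 4.0.16 (quasi-likelihood, TMM, filterByExpr, Benjamini-Hochberg at 0.05) in R 4.3.3, with DESeq2 1.42.0 as an alternative. Methylation was tested on calls summed over gene windows (gene and 2 kb on each side), start windows (1 kb on each side) and single positions with a quasi-binomial logistic model with moderated dispersion (Python 3.11.15, numpy 2.4.6, scipy 1.17.1), adjusted over all windows or positions with at least 10 calls in every sample compared and at least 3 positions per window. This model weighs each sample by its calls, whereas the printed differences are between plain means of sample percents. Limma 3.58.1 tested the mean percent with positions weighing the same. In simulated data, the count test recovered 54% of genes changed 2-fold and 96% of those changed 4-fold. The window test recovered 8.8% of 20-point changes in gene windows at the replicate spread simulated first (beta-binomial correlation 0.02) and 56% at 0.01, a value tried after that low recovery. The fitted prior dispersion was 8.46 and 4.88 in these simulations and 5.52 in the real windows. The prior leaves out variances near 0, a choice made after the fit with a replicate block called no position. Replicate numbers did not pair the samples.

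The members and gene lists were chosen with earlier results of these data known. Besides all members, the named pathway genes are up to 3 per sub-list past the threshold with Tubb3, Tubb5 and Tubal3, the named positions up to 3 per gene of smallest p, and the like patterns the nearest 5 per gene with a standard symbol. Other positions near the 2 Tuba3 starts were chosen after their values were seen, as was the use of 5 calls for Tuba3a. Intervals cover counting error only, and those of methylation treat calls at neighbouring positions as independent. Transcript lengths and protein sequences were not used here.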

Additional observations from a re-analysis of the deposited data

How the results depend on the processing

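Tuba3a and Tuba3b kept a log2 fold change above 9 in RNA under all 10 alternatives, and Tuba4a stayed between -1.61 and -1.28. For the 2 Tuba3 genes this is a description, because they were chosen on the same counts. The Tuba3a methylation losses kept their direction and call under every alternative run, over 9 for its start window (-34.4 to -29.5 points, settings chosen after seeing the data) and 12 for its gene window (-35.0 to -15.8). The Tuba3b losses kept their direction, but with positions weighing the same neither passed (-6.90 points at the start, -7.49 over the gene), and leaving out 1 replicate gave -12.4 to -3.39 and -13.5 to -1.60 points. The sign turned for 2 changes that had passed, the Tuba1a gene window in adults with a minimum of 20 calls (0.401 points) and the Tuba1c start in adults with 500 bases on each side (0.169). It also turned for 2 that had not passed as planned but passed under the alternative. These were the Tuba1a gene window in KO with a minimum of 1 call (-12.9, added after seeing the data) and the Tuba8 gene window in KO with positions weighing the same (-8.40). Changes that passed under neither setting turned sign as well, among them ones of Tuba1b, Tuba1c and Tuba4a. The cause was not tested.

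Counts of calls moved as follows. A minimum of 20 calls gave 8095 gene windows and 365 start windows lower in KO, 602 start windows lower in adults and 69190 positions lower. A minimum of 5 calls gave 1333 start windows lower in KO, and a minimum of 1 call, added after seeing the data, 1885 in KO and 2553 in adults. With 500 bases on each side of the start, 377 were lower in KO and 623 in adults. With positions weighing the same, 442 start windows were lower in KO and 829 in adults, and 2043 gene windows in adults. A difference of at least 25 points left 84004 positions. DESeq2 called 3 pathway genes higher. Leaving out 1 library, counts ranged from 647 to 2512 genes higher and 701 to 2561 lower, both highest without control 3, from 1 to 10 and 1 to 7 pathway genes higher and lower, from 538 to 1216 start windows lower in KO and 822 to 1260 in adults, and from 3353 to 5632 gene windows lower in adults.

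Samples with the same replicate number did not deviate together (correlations -0.272, -0.0895 and -0.140 in RNA and -0.00413, -0.00640 and 0.00103 in RRBS), so the numbers do not pair samples. With the replicate block, 798 genes were higher and 1005 lower, and no call on a member changed. Depth limits the starts of Tuba3a, Tuba1a and Tuba8, where fewer than 3 positions had 10 calls in all 6 P0 samples. Over all positions of its library, KO 3 had a median of 4 calls per position.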
